A study of Mus musculus with 11 samples.

Results

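Stem cells of the mouse hair follicle are known by a small set of transcription factors, receptors and surface or matrix proteins, and the transcripts of 10 such genes were followed here in sorted epidermal cells. The genes were taken by name from a list of follicle stem cell genes, namely the transcription factors *Lhx2*, *Sox9*, *Nfatc1* and *Tcf7l1*, the receptors *Lgr5*, *Lgr6* and *Lrig1*, the surface protein *Cd34*, the matrix protein *Postn* and the ligand *Shh*. All 10 were found among the 52550 genes of the table through their Ensembl identifiers, and 9 of them, all but *Shh*, were among the 14419 genes that passed a filter on low values. RNA-seq had been performed on keratinocytes (KCs), the epithelial cells of the epidermis and its follicles, and on dendritic epidermal T cells (DETCs), the γ/δ T cells that reside in mouse epidermis.

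The KC libraries were 3 of wild-type (WT) and 3 of LC-/- mice. DETCs were represented by 3 WT and 2 LC-/- libraries, and all mice were females 8 weeks old. LC-/- mice carry the huLangerin-DTA transgene, in which diphtheria toxin A is made under the human langerin promoter so that Langerhans cells (LCs) are missing throughout life, and the WT mice were littermates. Both populations were sorted from trypsin-treated epidermal sheets of flank skin as live single cells without MHC-II, langerin or c-kit, KCs without CD45 and DETCs with it. Neither gate used a follicle marker, so that a KC value is an average over interfollicular and follicular keratinocytes, and the DETC gate used no T cell receptor. The libraries are written W1 to W3 for WT and L1 to L3 for LC-/-, in the order of the numbers in their labels, and no DETC library of L1 was among them.

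In the resting follicle, stem cells sit in the bulge, below the sebaceous gland, and in the hair germ underneath it. LHX2, SOX9, NFATC1 and TCF7L1 are nuclear factors that keep bulge cells in their undifferentiated and mostly quiescent state, LGR5 and LGR6 bind R-spondins and strengthen Wnt signalling, and LRIG1 is a transmembrane protein that dampens signalling of the EGF receptor family. *Lgr5* marks the lower bulge and germ, *Lgr6* the region just above the bulge, and *Lrig1* the junction with the sebaceous gland. Sonic hedgehog (SHH) is made by germ and matrix cells once a follicle enters growth. NFATC1 is also one of the calcineurin-dependent factors of activated T cells.

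Libraries held from 13491075 to 19750440 reads on genes, and a count of 0 allows up to 3 reads. *Cd207*, which encodes langerin, had a mean of 16.2 normalized counts in WT KCs and 0 reads in all 3 LC-/- KC libraries. The 12 DETC markers summed to 9.51 to 33.6 normalized counts in KC libraries and to 197382 to 213432 in DETC libraries. KC libraries were thus nearly free of DETC transcripts. The reverse did not hold, since the keratin *Krt5* had a mean of 119690.3 normalized counts in WT KCs and 18609 in WT DETCs, so that every DETC value below is set beside the share of keratinocyte transcripts in the same library.

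Follicle stem cell transcripts were abundant in KCs, and their order is given per kb of exon because longer genes collect more reads. In WT KCs, *Postn*, which encodes the secreted matrix protein periostin, was the most abundant of the 10 genes with 1286 ± 77.1 normalized counts per kb (SD, n = 3). *Sox9* followed with 773 ± 57.1 per kb and *Lrig1* with 432 ± 6.63 per kb. *Lgr6* (354 ± 33.8 per kb) and *Nfatc1* (325 ± 14.0 per kb) came next, and their ranges over the 3 libraries overlapped. *Cd34*, a sialomucin of the bulge cell surface, had 199 ± 5.94 per kb and *Lhx2* 126 ± 20.6 per kb. At the low end stood *Lgr5* with 32.9 ± 4.73 per kb and *Tcf7l1* with 26.1 ± 3.21 per kb, and these again overlapped. All other neighbours in this order were separated in all 3 WT libraries.

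*Shh* stood apart from the other 9 genes. It had 2 reads in the KC library of W2, 1 read in that of W3 and 0 reads in the other 9 libraries, which is within what a count of 0 allows, and it was not tested. Of the 19 keratins and other genes of the growing hair shaft and its matrix in the table, 9 were likewise at 3 reads or fewer in every library. The list as a whole was not scarce, as it summed to 6054 to 7262 normalized counts in KC libraries, with the transcription factor *Gata3* the highest. The other 9 members were read many times over in KCs, down to the 80 reads of *Tcf7l1* in the KC library of L1.

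**Figure D1:**
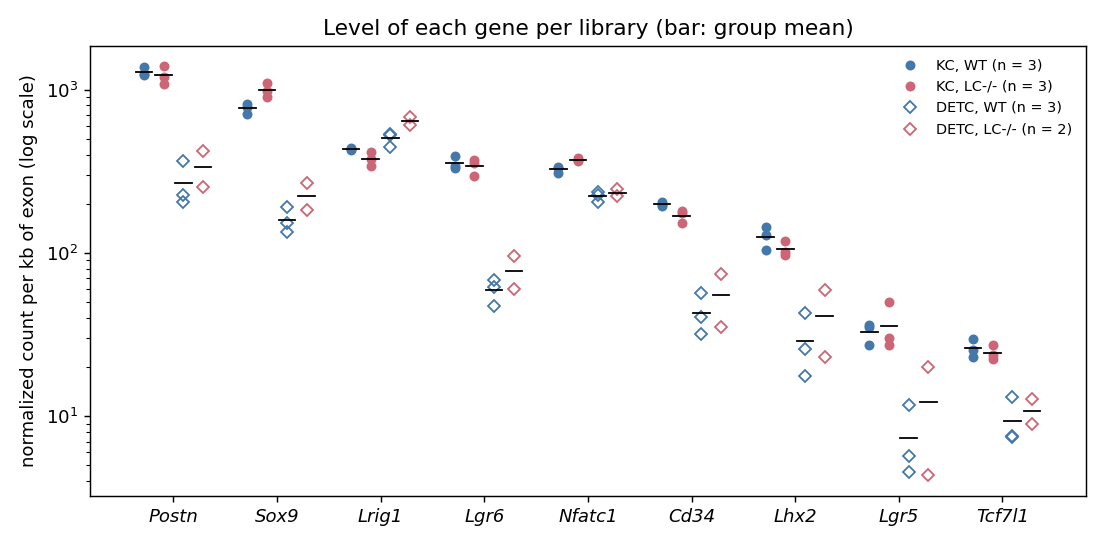
Level of 9 hair follicle stem cell genes in each library, as normalized counts per kb of exon on a log axis, with filled circles for KCs, open diamonds for DETCs, blue for WT, red for LC-/- and a bar at each group mean. *Postn* was highest in KCs (1286 per kb in WT), *Lrig1* was highest in DETCs (502 per kb in WT), and for the genes other than *Lrig1* every WT DETC library lay below every WT KC library.

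The first question was whether follicle stem cell transcripts in KCs differ when LCs have been absent. With limma, 0 of the 9 tested genes passed an adjusted p of 0.05 in KCs, where 7.23% of all 14419 genes did. The log2 differences (LC-/- minus WT) ran from -0.24 to 0.37 with a median of -0.08, beside a median of -0.01 over all tested genes, and 3 of 9 were above 0. At an unadjusted p under 0.05 stood *Nfatc1*, *Sox9* and *Cd34*. DESeq2 and edgeR, run on the reads recovered from the table, each called 1 gene, *Sox9*, where they called 12.2% and 12.4% of all genes. The values of the 2 genotypes did not overlap for 4 of the 9 genes, where 31.5% of all tested genes were separated in this way. For 2 members the LC-/- values were the higher (16.6% of all tested genes) and for 2 the lower (14.9%). In these bulk samples fewer follicle cells and less RNA per follicle cell cannot be told apart.

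*Sox9*, which specifies the bulge stem cells and is kept on in the outer root sheath, lies on chromosome 11 (chr11:112782224-112787760, plus strand, GRCm38). WT KCs had 2936, 3254 and 3397 normalized counts and LC-/- KCs had 4573, 3732 and 4072. All 3 LC-/- libraries were above all 3 WT libraries. The means were 3196 ± 236 (SD, n = 3) and 4126 ± 423 (SD, n = 3), a log2 difference of 0.37 with a standard error of 0.0948, and the adjusted p was 0.0842 with limma. The call depended on the test and the filter, with adjusted p of 0.00284 by DESeq2, 0.0181 by edgeR, 0.0176 by limma without a filter and 0.0211 by limma with a minimum mean of 10.

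*Nfatc1*, the calcineurin-dependent factor that holds bulge cells quiescent (chr18:80606205-80713071, minus strand), behaved similarly with a smaller difference. WT KCs had 2509, 2466 and 2311 normalized counts and LC-/- KCs 2766, 2714 and 2854. The 3 LC-/- libraries were again above the 3 WT libraries, at means of 2778 ± 70.8 and 2429 ± 104 (SD, n = 3 each). The log2 difference was 0.19 with a standard error of 0.0433, and the adjusted p by limma was 0.0617. No alternative moved it below 0.05, and adjusted p ran from 0.0616 to 0.624.

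The other 2 transcription factors did not separate the genotypes. *Lhx2*, a LIM-homeodomain factor (chr2:38339281-38369733, plus strand), had 457, 562 and 637 normalized counts in WT KCs and 443, 426 and 522 in LC-/- KCs. The lowest WT library lay among the LC-/- libraries, and the log2 difference was -0.24 (standard error 0.148, limma adjusted p = 0.354). *Tcf7l1*, a TCF factor that represses Wnt targets in the absence of β-catenin (chr6:72626378-72789254, minus strand), had 115.8, 90.9 and 100.3 normalized counts in WT KCs and 88.1, 93.6 and 107.2 in LC-/- KCs. The ranges overlapped, and the log2 difference was -0.08 (standard error 0.136, limma adjusted p = 0.744).

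Among the receptors, *Lrig1* alone was separated by genotype in KCs. *Lrig1* (chr6:94604529-94700158, minus strand) had 2411, 2449 and 2375 normalized counts in WT KCs and 1896, 2091 and 2335 in LC-/- KCs. The WT libraries lay within a narrow range, and L3 was just below it while L1 and L2 were lower. The means were 2411 ± 37.0 and 2107 ± 220 (SD, n = 3 each), the log2 difference was -0.20 with a standard error of 0.0796, and it did not pass limma (adjusted p = 0.192). *Lgr5* (chr10:115450311-115587780, minus strand) had 281.8, 369.2 and 362.2 normalized counts in WT KCs and 310.7, 280.9 and 512.8 in LC-/- KCs. The L3 library was the highest of the 6 and L2 the lowest, and the log2 difference was 0.08 with a standard error of 0.259 (limma adjusted p = 0.882). *Lgr6* (chr1:134983301-135105276, minus strand) had 2692, 2263 and 2328 normalized counts in WT KCs and 2028, 2431 and 2550.2 in LC-/- KCs. Its ranges overlapped, with a log2 difference of -0.06 (standard error 0.113, limma adjusted p = 0.792).

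*Cd34* (chr1:194938819-194961279, plus strand) had 1412, 1437 and 1496 normalized counts in WT KCs and 1274, 1105 and 1324 in LC-/- KCs. All 3 LC-/- libraries were below all 3 WT libraries, with L2 the lowest. The means were 1448 ± 43.3 and 1234 ± 114 (SD, n = 3 each), and the log2 difference of -0.23 (standard error 0.0757) did not pass limma with an adjusted p of 0.129. *Postn* (chr3:54361109-54391037, plus strand) had 10763, 10837 and 11961 normalized counts in WT KCs and 12085, 9379 and 10469 in LC-/- KCs. L1 was the highest library and L2 the lowest, so the genotypes overlapped (log2 difference -0.08, standard error 0.107, limma adjusted p = 0.694). CD34 and periostin are also made by endothelial cells and fibroblasts. In KC libraries the summed normalized counts of 7 endothelial markers were 14.8 to 33.6, the endothelial cadherin *Cdh5* had means of 0.62 in WT and 0.73 in LC-/-, and the collagen *Col1a1* had means of 31.8 and 23.6. The 10 fibroblast markers summed to 383 to 471 in WT and 318 to 366 in LC-/- KCs, with the fibulin *Fbln1* the highest, and their part in the *Cd34* and *Postn* values was not tested.

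**Figure D2:**
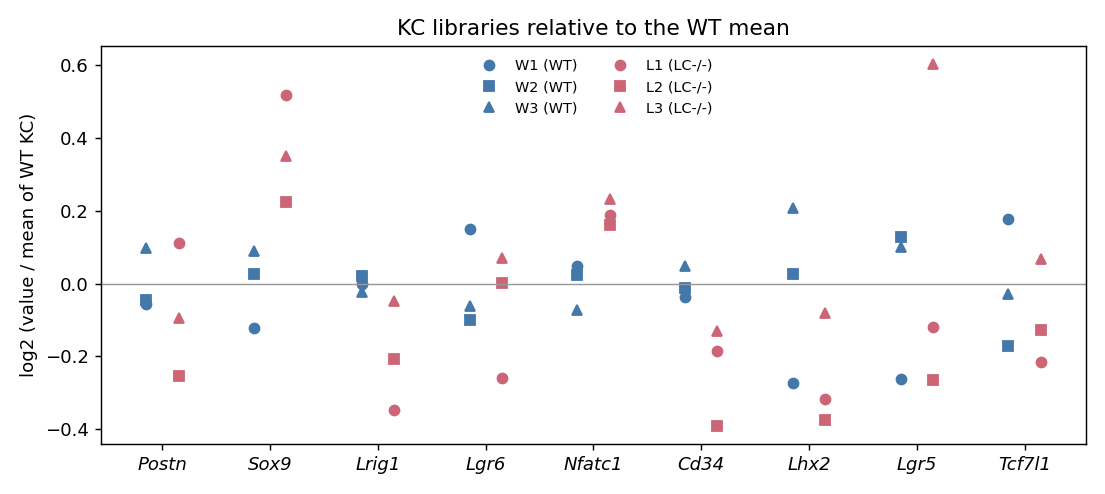
Each KC library as the log2 ratio to the WT KC mean of the same gene, blue for WT and red for LC-/-, with circles, squares and triangles for the libraries numbered 1, 2 and 3 of each genotype. The 3 LC-/- libraries lay above the 3 WT libraries for *Sox9* and *Nfatc1* and below them for *Lrig1* and *Cd34*, and the genotypes overlapped for the other 5 genes.

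The members did not vary together over the 6 KC libraries, 3 of each genotype, so that part of any correlation can come from the genotype groups. Pearson correlations of their log2 values, given as a description, ran from 0.89 for *Tcf7l1* with *Lgr6* to -0.80 for *Sox9* with *Lrig1*. *Lhx2* and *Cd34* had 0.78 and *Sox9* and *Nfatc1* 0.73. Among 12985 other genes with a mean of at least 10, the closest to *Sox9* were *Wdr36* (0.997) and *Phldb2* (0.996), to *Nfatc1* *Copa* (0.996) and *Pigm* (0.993), to *Cd34* *Tnfaip8* (0.997) and *Rdh5* (0.993), and to *Lgr6* *Pard6b* (0.996) and *Ankrd49* (0.989). For *Lrig1* they were *Rad1* (0.992) and *Hspb8* (0.992), for *Lhx2* *Znhit6* (0.991) and *Grem1* (0.991), for *Postn* *Carnmt1* (0.991) and *Gm43481* (0.983), for *Lgr5* *Psme2* (0.986) and *Oasl2* (0.978), and for *Tcf7l1* *Clasp1* and *Sh3rf2* (0.983 each). They were picked as the highest of all candidates and carry no test.

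Other genes of the bulge, hair germ and outer root sheath were examined beside the members. In KCs, 3 of 18 tested genes of this kind fell and 0 rose, where 1.85% of all genes fell and 5.37% rose, with a median log2 difference of -0.15 and 3 of 18 above 0. The 3 were *Barx2*, a homeobox factor (log2 difference -0.40, adjusted p = 0.0198), *Dkk3*, a secreted Dickkopf family protein (-0.30, adjusted p = 0.0272), and *Gas1*, a hedgehog co-receptor (-0.48, adjusted p = 0.041). Means of *Gas1* were 721 ± 12.8 normalized counts in WT and 520.3 ± 55.5 in LC-/- (SD, n = 3 each). The bulge keratin *Krt15* had means of 50916 and 45727 normalized counts and did not pass (adjusted p = 0.340). Summed over the 20 genes, the level was 59493 to 63979 normalized counts in WT KCs and 54265 to 56843 in LC-/- KCs, and most of it was *Krt15*. Without *Krt15*, a choice made after seeing the data, the other 19 summed to 10499.8 to 11825 in WT and 9838 to 10382 in LC-/- KCs. The share of follicle cells among the sorted KCs was not tested.

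In the upper follicle, 1 of 9 tested genes rose in KCs and 0 fell, where 5.37% of all genes rose and 1.85% fell. This was *Plet1*, a surface protein of the junctional zone, with 20821 ± 1620 normalized counts in WT and 37190 ± 5710 in LC-/- KCs (log2 difference 0.83, adjusted p = 0.0347). The median of the 9 was -0.03. Of 11 tested hedgehog genes 1 fell, the co-receptor *Cdon* (-0.30, adjusted p = 0.0381), and the hedgehog targets *Gli1* and *Ptch1* had log2 differences of 0.05 and -0.18 and did not pass. None of 7 tested shaft and matrix genes and none of 4 sebaceous genes was called by limma, and 0 of either had an adjusted p under 0.05 in DETCs.

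Genes that act with the members gave a few calls in KCs, where 5.37% of all genes rose and 1.85% fell. A single call in a list this short says little about the list. Around the LGR receptors, 1 of 19 tested Wnt and R-spondin genes rose and 2 fell. The R-spondin *Rspo3* fell from 277 ± 40.9 to 156 ± 21.7 normalized counts (log2 difference -0.82, adjusted p = 0.0446), the Wnt feedback gene *Axin2* fell from 907 ± 67.2 to 596 ± 81.7 (-0.61, adjusted p = 0.0436), and its paralog *Axin1* rose (0.32, adjusted p = 0.0329). Among 11 tested NFAT and calcineurin genes 1 rose, the calcineurin inhibitor *Rcan1*, which is itself an NFAT target (0.61, adjusted p = 0.0352). Around LRIG1, 2 of 6 rose, the receptor tyrosine kinases *Egfr* (0.58, adjusted p = 0.0446) and *Met* (0.64, adjusted p = 0.0449), while *Lrig2* and *Lrig3* had differences of 0.01 and -0.24 and did not pass. Of 9 tested SOX, LHX and LDB genes 1 fell, *Sox21* (-0.49, adjusted p = 0.0251). The 12 calls among these related KC genes were also made by DESeq2 and edgeR in the same direction. Of the 12, 7 were lost without limma's trend of the variance on the mean, 7 in 1 fit over all 11 libraries (adjusted p up to 0.353, for *Dkk3*), 5 with quantile normalization and 1 with TMM normalization. With 1 KC library left out they kept their direction. Without L2, 7 of them passed limma, namely *Axin2*, *Barx2*, *Gas1*, *Met*, *Plet1*, *Rcan1* and *Sox21*. Without any of the other 5 libraries 0 passed (limma adjusted p of 0.0406 to 0.144 over all these fits). Over all genes, limma called 775 higher and 267 lower in the main fit, and 552 and 169 without L2. Without any of the other 5 libraries it called 5 to 200 higher and 0 to 24 lower. The losses were thus not particular to these 12 genes.

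In DETCs, the question was which follicle stem cell transcripts exceed what keratinocyte RNA in the library would give. For each DETC library, the values of 28 keratinocyte genes were divided by their mean in KCs of the same genotype (27 had a mean of at least 100 in WT KCs). The median was 15.3% in W1, 15.1% in W2, 18.7% in W3, 25.5% in L2 and 16.2% in L3. Single keratinocyte genes ranged from 6.31% to 35.2% in W1 and from 14.6% to 96.3% in L2. Whether these transcripts come from keratinocytes in the sort or from free RNA was not tested.

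*Lrig1* and *Nfatc1* stood above this share in all 5 DETC libraries. *Lrig1* reached 103%, 122% and 124% of the WT KC mean in W1, W2 and W3 and 160.2% and 179% of the LC-/- KC mean in L2 and L3, which is 6.28 to 11.0 times the keratinocyte share of the library. Its DETC values were 2492, 2944, 2982, 3376 and 3775 normalized counts in the same order, of which keratinocyte RNA at the median share would give 342 to 537. *Nfatc1* stood at 63.2%, 69.4% and 73.1% in the WT libraries and at 60.1% and 65.8% in L2 and L3. That is 2.36 to 4.60 times the share, above the highest keratinocyte gene in 4 libraries and within the keratinocyte range in L2. *Tcf7l1* was next, at 28.8% to 51.7%, from 27 to 53 reads per DETC library.

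The other 6 genes lay near the keratinocyte share in W1 and W2. *Lgr6* kept to it in all 5 libraries, at 17.5%, 13.4%, 19.3%, 28.1% and 17.6%, or 0.89 to 1.15 times the share, and like the keratinocyte genes it was highest in L2. *Cd34* had 16.1%, 20.3%, 28.7%, 20.8% and 44.2%, *Lhx2* 14.0%, 20.5%, 34.3%, 21.8% and 56.1%, and *Lgr5* 13.9%, 17.3%, 35.7%, 12.1% and 55.6% in W1, W2, W3, L2 and L3. *Postn* had 16.1%, 17.5%, 28.6%, 20.6% and 34.7%, and *Sox9* 17.4%, 19.8%, 24.8%, 18.3% and 26.7%. These 5 genes were thus highest in W3 among WT and in L3 among LC-/- libraries, while the keratinocyte share was highest in L2.

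**Figure D3:**
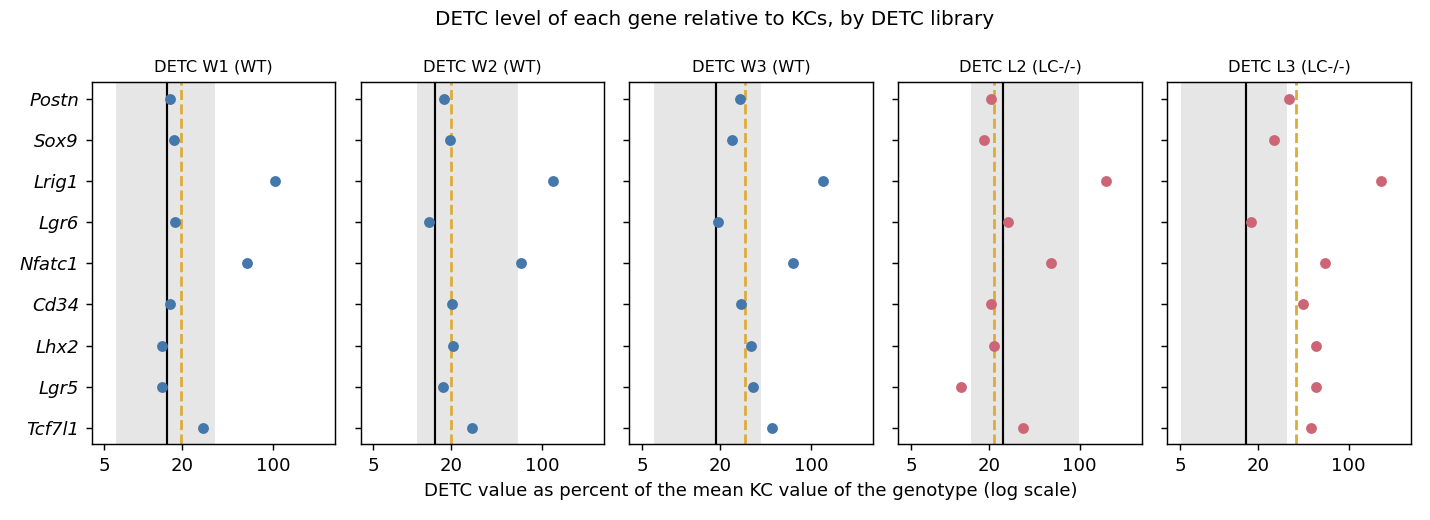
DETC value of each gene as a percentage of the mean KC value of the same genotype (log axis), 1 panel per DETC library, blue for WT and red for LC-/-. The black line is the median over keratinocyte genes, the grey band their lowest to highest value and the dashed line the median over other bulge and germ genes. *Lrig1* lay to the right of the band in all 5 panels and *Nfatc1* in 4, whereas *Lgr6* stayed near the black line and *Lhx2* and *Lgr5* shifted far to the right in L3.

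The DETC libraries of W3 and L3 stood apart from the others in the members and in other bulge and germ genes. Over the 9 members, W3 exceeded the mean of W1 and W2 by a median of 0.67 on the log2 scale (9 of 9 above 0) and L3 exceeded L2 by 0.54 (8 of 9). Over 18 other bulge and germ genes the medians were 0.48 (18 of 18) and 0.77 (16 of 18). Over all tested genes they were 0.03 and -0.02, and over 28 keratinocyte genes 0.21 and -0.77. Other follicle lists did not share the excess in L3. The medians were 0.16 and -0.41 over 9 upper follicle genes and 0.19 and -0.23 over 7 shaft and matrix genes. Over 4 sebaceous genes they were 0.39 and -0.48. Markers of some other cells also had medians above 0. These were 0.43 (2 of 4 above 0) and 1.25 (4 of 4) over the tested fibroblast markers. Over 8 Langerhans cell markers they were 0.41 (8 of 8) and 0.68 (6 of 8), although L2 and L3 both came from LC-/- mice. The highest gene of that list was *Epcam* in KCs and DETCs of both genotypes. In LC-/- KCs the list still summed to 9657 to 10232 normalized counts, so it is not particular to Langerhans cells. Over 2 endothelial markers the medians were 1.19 (2 of 2) and 0.70 (1 of 2). Over 2 melanocyte markers the medians were 0.55 and -0.09, and the 1 tested mast cell marker had 0.42 and -0.54. In DETC libraries the listed fibroblast markers summed to only 61.2 to 164 normalized counts and the endothelial markers to 17.5 to 49.8. The medians of these lists thus rest on low values. The part of these other cells in the follicle values was not tested. W3 and L3 were the highest of the 5 libraries for 6 of 9 members, 14 of 18 other bulge and germ genes and 1 of 28 keratinocyte genes, while L2 was the highest for 27 of the 28. As shares of KC means, the median over 16 other bulge and germ genes was 19.7%, 19.8%, 31.0%, 21.9% and 39.4% in W1, W2, W3, L2 and L3, and that over 9 upper follicle genes 12.6%, 12.3%, 16.5%, 19.0% and 16.3%.

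**Figure D4:**
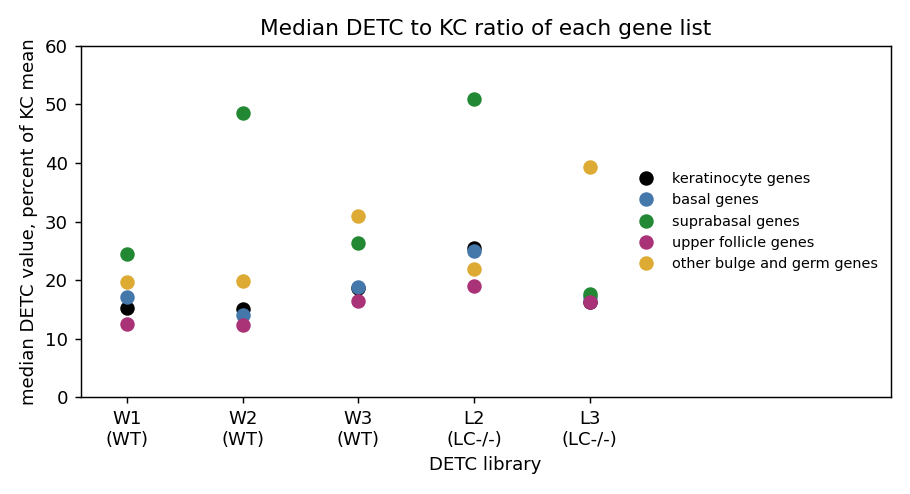
Median DETC value of each gene list as a percentage of the mean KC value of the same genotype, for the 5 DETC libraries. The median of other bulge and germ genes was highest in W3 (31.0%) and L3 (39.4%), while those of keratinocyte and suprabasal genes were highest in L2 (25.5% and 50.9%).

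In DETCs, *Lrig1* was at or above KC level. *Cd34* was at 0.81 to 1.34 times the keratinocyte share in W1, W2 and L2, and at 1.54 and 2.72 times in W3 and L3. For this difference in level the promoters of these 2 genes are shown. Both are the 250 bases before the RefSeq transcript start on GRCm38.p6, written 5′ to 3′ along the gene, and capitals mark the GC box GGGCGG. *Lrig1* is at chr6:94700146-94700395 on the minus strand and *Cd34* at chr1:194938571-194938820 on the plus strand.
Lrig1: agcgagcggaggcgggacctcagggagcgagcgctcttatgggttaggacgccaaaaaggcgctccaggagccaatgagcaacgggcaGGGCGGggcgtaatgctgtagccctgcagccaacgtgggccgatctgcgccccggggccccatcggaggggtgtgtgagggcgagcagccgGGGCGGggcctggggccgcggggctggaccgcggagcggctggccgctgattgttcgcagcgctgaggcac
Cd34: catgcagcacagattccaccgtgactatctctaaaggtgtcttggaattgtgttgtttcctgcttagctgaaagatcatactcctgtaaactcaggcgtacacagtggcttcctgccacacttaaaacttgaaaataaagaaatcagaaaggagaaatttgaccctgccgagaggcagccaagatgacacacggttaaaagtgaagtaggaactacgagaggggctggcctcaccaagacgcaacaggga
The *Lrig1* window held 2 GC boxes and was 71.6% G or C, and the *Cd34* window held none of 5 motifs searched on both strands and was 46.4% G or C. The 5 were the TATA box TATAAA, the GC box GGGCGG, the TCF/LEF core CTTTGA, the RUNX core TGTGGT and the ETS core CCGGAAG, which were found in 12.4%, 32.7%, 13.8%, 14.0% and 6.91% of 32851 promoters of this length. Of the 10 members, 6 had a promoter in the table used. GC boxes were also found for *Lhx2* (4 in its first window and 0 in its second), *Tcf7l1* (2) and *Lgr6* (1). These genes were all lower in WT DETCs than in WT KCs. Whether GC boxes go with the DETC level was not tested.

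Between the populations in WT, 9 of 9 tested members differed, where 76% of all genes did. *Lrig1* was higher in DETCs and the other 8 were lower, as were 41% and 35.1% of all genes, and 79.4% of all genes had values that did not overlap between the populations, as these 9 had. WT DETCs had a mean of 2806 ± 272 normalized counts of *Lrig1* against 2411 ± 37.0 in KCs (SD, n = 3 each), a log2 difference of 0.21 with a standard error of 0.0811 (limma adjusted p = 0.0363). This call was lost in 10 of 17 alternatives, 5 of which left out 1 library (each WT KC library and the DETC libraries of W2 and W3), and among the 10 the direction turned with quantile normalization (-0.082, adjusted p = 0.297). *Nfatc1* was lower in DETCs by a log2 difference of -0.55 (adjusted p = 0.000106) and *Tcf7l1* by -1.49 (adjusted p = 0.000381). The 6 others ranged from -2.20 for *Lhx2* to -2.59 for *Lgr6*, next to a median of 0.07 over all tested genes.

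Genes close to these members showed where DETC levels differed within a family. *Lrig2* stood at 133% to 149% of the KC mean in the 5 DETC libraries, *Lrig3* at 25.9% to 43.5%, and the LRIG1 partners *Egfr*, *Erbb2* and *Erbb3* at 10.2% to 25.4%, near the keratinocyte share. *Nfatc2*, an NFAT factor of T cells, was far higher in DETCs (2189.6 ± 145 against 124 ± 15.1 normalized counts in WT, SD, n = 3 each, log2 difference 4.13). The homeodomain-only protein gene *Hopx*, a bulge marker from the other follicle genes, was also higher in DETCs, with 2219.8 against 1179 normalized counts in WT (log2 difference 0.91). *Axin2* and the hedgehog receptor *Ptch1* were higher in DETCs by log2 differences of 2.38 and 1.60, whereas *Gli1* was lower by -2.34.

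Per kb of exon, *Lrig1* ranked first among the 10 genes in DETCs of both genotypes, with 502 ± 48.7 normalized counts per kb in WT (SD, n = 3) and 640.2 ± 50.5 in LC-/- (SD, n = 2). *Postn* (267 ± 88.4) and *Nfatc1* (223 ± 16.3) followed in WT DETCs and their ranges overlapped. *Lgr6*, *Cd34* and *Lhx2* formed a run in which neighbours overlapped, as did *Tcf7l1* and *Lgr5* at the low end.

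The genotype comparison in DETCs called 0 of the 9 tested members with limma, where 3.56% of all genes were called, and 0 with DESeq2 and edgeR, which called 7.7% and 3.35% of all genes. At an unadjusted p under 0.05 limma had *Lrig1* and *Sox9*. All 9 log2 differences were above 0, with a median of 0.35 beside 0.02 over all tested genes. The keratinocyte share ran from 15.1% to 18.7% over the WT libraries, L3 had 16.2% and L2 25.5%, and the median of other bulge and germ genes was highest in L3. Their part in these differences was not tested. Only *Lrig1* had values that did not overlap between the genotypes, where 37.9% of all tested genes had, 21.3% with the LC-/- values higher.

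*Lrig1* had a mean of 2806 ± 272 normalized counts in WT DETCs (SD, n = 3) and 3575 ± 282 in LC-/- DETCs (SD, n = 2). Both LC-/- libraries were above the highest WT library, W3. The log2 difference was 0.35 with a standard error of 0.108, and it did not pass limma (adjusted p = 0.126, over alternatives 0.0659 to 0.426). *Sox9* had 557, 631 and 793 normalized counts in WT DETCs and 755 and 1102 in LC-/- DETCs. L2 lay below W3, and the log2 difference was 0.48 (standard error 0.193, limma adjusted p = 0.228). With the keratinocyte share subtracted from each value, and results below 0 set to 0, it turned to -2.60 (limma adjusted p = 0.699). In L2 the share would give 1052 normalized counts, more than the 755 found. That library was thus set to 0, and the turn in sign rests on it. *Nfatc1* had 1534, 1685 and 1775 in WT and 1669 and 1829 in LC-/- DETCs, again with overlap (log2 difference 0.07, limma adjusted p = 0.743).

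For the genes that followed L3, the genotype difference rested on that library. *Lgr5* had 46.9, 58.6 and 120.6 normalized counts in WT DETCs and 44.7 and 204.5 in LC-/- DETCs. L2 was the lowest of the 5 libraries and L3 the highest. The log2 difference of 0.46 (standard error 0.623, limma adjusted p = 0.745) became -0.62 without L3. *Lhx2* had 77.5, 113.1 and 189.6 in WT and 101.0 and 259.8 in LC-/- DETCs, and 0.45 became -0.23 without L3. *Cd34* had 233.5, 293.8 and 416.2 in WT and 256.3 and 545.1 in LC-/- DETCs, and its 0.29 became -0.25. *Postn* had 1797, 1957 and 3203 in WT and 2194 and 3689 in LC-/- DETCs, and 0.34 became -0.031. *Tcf7l1*, with 29.5, 29.7 and 51.5 against 35.0 and 49.8, went from 0.22 to -0.027. None of these 5 passed limma with or without L3. Where L2 or L3 was left out, the lone LC-/- library was assumed to vary like the WT libraries.

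*Lgr6* was the exception among the receptors, as it followed L2. It had 425.6, 326.0 and 468.7 normalized counts in WT DETCs and 656.3 and 411.3 in LC-/- DETCs, with L2 the highest and L3 within the WT range. The log2 difference was 0.37 (standard error 0.221, limma adjusted p = 0.417). It was 0.032 without L2 and 0.71 without L3. It was 2.25 with the keratinocyte share subtracted and 3.59 with the share of other bulge genes subtracted, and neither of these 2 passed. The first subtraction set W2 to 0. The second set W1, W2, W3 and L3 to 0, so that 3.59 rests on L2 alone. With the DETC libraries of W3 and L3 both left out, a choice made after their values were seen, the *Lgr6* difference was 0.82. Limma then called it, but the lone LC-/- library was L2, whose keratinocyte share was 25.5%, and the spread came from W1 and W2 alone.

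**Figure D5:**
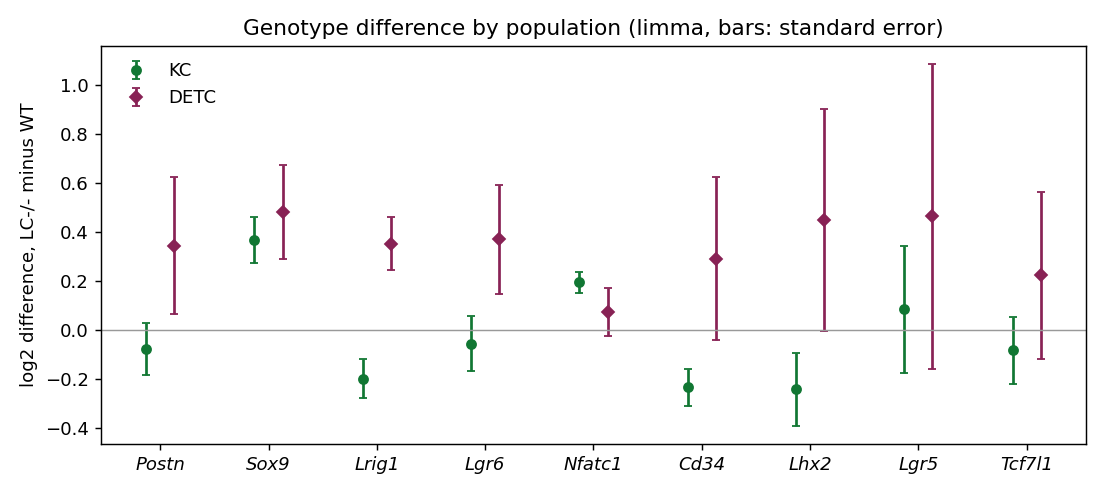
Genotype difference (LC-/- minus WT) of each gene on the log2 scale in KCs (green circles) and DETCs (purple diamonds), with bars of 1 standard error from limma. *Lrig1* was below 0 in KCs (-0.20) and above 0 in DETCs (0.35), and *Sox9* was above 0 in both (0.37 and 0.48), though none passed an adjusted p of 0.05 in limma. The DETC difference of *Sox9* was -2.60 once the keratinocyte share was subtracted, which set its L2 value to 0.

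Whether the genotype difference itself differed between the populations was tested with an interaction term, and 0 of 9 members passed with limma, where 0.798% of all genes did. *Lrig1* had the smallest p of the 9, and alone had an unadjusted p under 0.05. Its difference was lower by 0.20 in KCs and higher by 0.35 in DETCs, so that the interaction was 0.55 on the log2 scale with a standard error of 0.140 (limma adjusted p = 0.112). DESeq2 called it with an adjusted p of 0.0211, where DESeq2 called 2.14% of all genes, and edgeR did not (adjusted p = 0.135, with 0.791% of all genes called). Of the pathway genes, *Axin2* passed with limma, lower in LC-/- KCs and at 4707 ± 194 and 6185 ± 225 normalized counts in WT and LC-/- DETCs (interaction 1.01, adjusted p = 0.00969), and it also passed with any 1 of the 11 libraries left out. Within DETCs alone, the *Axin2* difference was 0.39 and did not pass (limma adjusted p = 0.0509). The label number as a replicate block also takes out the KC library of L1, because it has no DETC partner. With this block the limma adjusted p of the *Axin2* interaction was 0.0663, and without limma's trend of the variance on the mean it was 0.0688. The *Lrig1* relative *Lrig3* had an interaction of 0.56 and did not pass (adjusted p = 0.112).

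In DETCs, few of the related genes passed. Of 18 tested bulge and germ genes 0 were called (median log2 difference 0.15), and of 9 upper follicle genes 1 rose, where 3.13% of all genes did. This was *Plet1*, from 3318 ± 440.5 to 7155 ± 1557 normalized counts (log2 difference 1.10, adjusted p = 0.0177). *Plet1* stood at 16.1%, 13.8%, 18.0%, 22.2% and 16.3% of the KC mean in W1, W2, W3, L2 and L3. That is 0.87 to 1.05 times the keratinocyte share, and *Plet1* was higher in LC-/- KCs too. *Rcan1* rose from 843 ± 84.9 to 1494 ± 374 (0.81, adjusted p = 0.0386). At 24.5%, 20.3%, 24.0%, 31.3% and 21.9% of the KC mean in W1, W2, W3, L2 and L3, *Rcan1* was near the keratinocyte share, and it was higher in LC-/- KCs too. Without L2 the log2 differences were 0.88 for *Plet1* and 0.55 for *Rcan1*. Both calls were lost without W2 or W3. They were also lost once the keratinocyte share was subtracted, where *Plet1* turned to -0.40 and *Rcan1* had 0.46. Over all genes, limma called 452 higher in the main fit, 63 without W2, 42 without W3 and 0 after the subtraction. These losses were thus not particular to *Plet1* and *Rcan1*. The subtraction set *Plet1* to 0 in W2, W3 and L2. Without W1, *Plet1* passed and *Rcan1* did not. Without the trend of the variance on the mean neither passed (limma adjusted p = 0.180 and 0.197), and 0 of all tested genes did. No hedgehog, Wnt and R-spondin, SOX and LHX or LRIG1-related gene was called in the DETC genotype comparison, of 11, 19, 9 and 6 tested.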

How the data were processed

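Poly-A RNA of sorted cells was sequenced with paired reads of 75 bases. Cutadapt, hisat2 (GRCm38) and featureCounts were used by the authors, who then scaled libraries by size factors from the median of ratios. The deposited table thus holds a scaled signal, that is, read counts divided by 1 number per library. All values were whole multiples of a step per library (tolerance 0.01 reads), from which reads were recovered. No deposited column was left unused. The main test was limma 3.58.1 (R 4.3.3) on log2 values after a pseudocount of 1, for 14419 genes with a CPM above 1 in at least 2 libraries. Variances were moderated along a mean trend, tests were two-sided and p-values were adjusted by Benjamini-Hochberg over all genes tested. Fold changes of low genes are understated on this scale. Recovered reads were also tested with edgeR 4.0.16 and DESeq2 1.42.0.

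For positions and exon lengths GENCODE mouse release 21 was used (52403 of 52550 identifiers matched), and for promoters RefSeq. The members and all gene lists were chosen with earlier results of these data known. Named beyond the members were called genes of each list, at most 4 by size, 2 genes most like each member in KCs, and genes needed to check labels. *Lrig2*, *Lrig3*, *Erbb2*, *Erbb3*, *Nfatc2*, *Hopx*, *Gli1*, *Ptch1* and *Krt15* were named from the lists after their values were seen. Libraries are described by the study as coming from separate animals, and p-values measure the spread between these libraries. Deviations from group means over 14039 genes were correlated between same-numbered KC and DETC libraries. The correlations were -0.0586, 0.0736, 0.120, 0.156 and 0.128 for W1, W2, W3, L2 and L3. For differently numbered libraries of the same genotype they ran from -0.156 to 0.0635. Deviations cancel within a group, so these values are not independent of the same-numbered ones. The deviations of L2 and L3 in DETCs are exact mirror images. The KC library of L2 thus had 0.156 with the DETC library of L2 and -0.156 with that of L3. The labels do not say whether a shared number is a shared mouse, and the main fits did not pair libraries by number. Counts were simulated for 14419 genes, with 200 changed 2-fold and the same dispersion for every gene. Limma recovered 19 in the KC design, 154 in the DETC design, 166 between populations and 67 for the interaction. DESeq2 recovered 159, 131, 153 and 89, and edgeR 166, 153, 170 and 71. The limit of 3 reads covers counting error only.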

Additional observations from a re-analysis of the deposited data

Results flagged for a closer look

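*Lrig1* differed in opposite directions with genotype in the 2 populations, and neither difference passed limma (adjusted p = 0.192 in KCs and 0.126 in DETCs). All 3 LC-/- KC libraries were below the WT KC libraries and both LC-/- DETC libraries were above the WT DETC libraries. The difference of the log2 differences, DETC minus KC, was 0.55 with a standard error of 0.140. The interaction test of limma gave an adjusted p of 0.112, so the difference did not pass. DESeq2 gave 0.0211, edgeR 0.135 and limma with the label number as a replicate block 0.276. Over all alternatives the value ran from 0.47 to 0.63. Its DETC values were 6.28 to 11.0 times the keratinocyte share of their library. The Wnt feedback gene *Axin2* also differed between the populations, with an interaction of 1.01 that passed limma (adjusted p = 0.00969). It was lower in LC-/- KCs (-0.61, limma adjusted p = 0.0436), a call kept in 1 of 6 fits with 1 library left out. It was higher in LC-/- DETCs by 0.39, which did not pass (limma adjusted p = 0.0509). The test for a single value far from the rest of its group needs groups of 4 or more and was not run, as groups here had 2 or 3 libraries.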

How the results depend on the processing

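Of the values of single genes, members and called related genes, 754 kept their direction and their side of the threshold under the alternatives, 109 lost a call, 6 gained one and 26 changed sign. In KCs, 1 member was called instead of 0 without a filter, with a minimum mean of 10, with DESeq2 and with edgeR, and it was *Sox9* each time. In DETCs, 1 member (*Lgr6*) was called with W3 and L3 both left out, added after the data were seen, where L2 was the lone LC-/- library and the spread came from W1 and W2 alone, and DESeq2 called 1 member (*Lrig1*) in the interaction. On simulated counts limma recovered few changes in the KC design. Those counts had the same dispersion for every gene, and on the data limma called 7.23% of all genes in KCs. Its power for the members in KCs was thus not measured, and its 0 calls do not show that they were unchanged.

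With 1 library left out at a time, KC differences ran from -0.18 to 0.25 for *Lgr5*, from -0.12 to 0.041 for *Lgr6*, from -0.17 to 0.0095 for *Postn* and from -0.17 to 0.0079 for *Tcf7l1*, which was 0.022 with quantile normalization. DETC differences, lowest without L3 and highest without L2, ran from -0.25 to 0.83 for *Cd34*, from -0.62 to 1.55 for *Lgr5*, from -0.23 to 1.13 for *Lhx2*, from -0.031 to 0.72 for *Postn* and from -0.027 to 0.48 for *Tcf7l1* (highest without W3). The interaction ran from -0.019 to 1.07 for *Cd34*, from -0.70 to 1.47 for *Lgr5* and from -0.16 to 0.39 for *Sox9*. Without W3 and L3, *Cd34* was -0.031 and *Lgr5* -0.23. With the keratinocyte share subtracted, *Cd34* was -1.49, *Lhx2* -0.030, *Nfatc1* -0.14, *Postn* -2.74, *Sox9* -2.60 and the related gene *Plet1* -0.40, and with the share of other bulge genes subtracted, added after the data were seen, *Nfatc1* was -0.31 and *Sox9* and *Postn* had no value left. Values below 0 after a subtraction were set to 0. With the keratinocyte share this was so in L2 for *Cd34*, *Lhx2*, *Postn*, *Sox9* and *Plet1*. It was also so in W1 for *Lhx2* and in W2 and W3 for *Plet1*. *Nfatc1* was -0.045 with quantile normalization. *Lrig1* in DETCs against KCs of WT was -0.082 with quantile normalization, which moved the median of all genes from 0.07 to -0.24. None of these values passed the test, and the cause was not tested.

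The keratinocyte share depended on the list. From suprabasal genes it was 24.4% in W1, 48.5% in W2, 26.4% in W3 and 50.9% in L2, and from other bulge and germ genes, added after the data were seen, 19.7% in W1, 19.8% in W2, 31.0% in W3 and 39.4% in L3. With the label number as a replicate block, 9 members were called between the populations and 0 in the interaction, where *Lrig1* had 0.48 and an adjusted p of 0.276, and the calls over all genes in the interaction went from 115 to 18. This block also takes out the KC library of L1, which has no DETC partner, and leaving out that library alone gave 54. *Axin2* lost its interaction call under the block (0.97, adjusted p = 0.0663). The block was run only between the populations and in the interaction, where it changed no other call on a member.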
